A study of Homo sapiens with 8 samples.

Results

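The histone genes were read in MM1.S cells, a human line of plasma-cell origin from multiple myeloma. A gene was counted as a member when its name in the deposited table began with HIST1H, HIST2H, HIST3H, HIST4H, H1F, H2AF or H3F and was not an antisense name, which gave 50 of 16295 listed genes. Of these, 40 carried a HIST name and are called cluster genes here, since most such genes lie in a few gene clusters. They comprised 3 genes for H1, 11 for H2A, 11 for H2B, 8 for H3 and 7 for H4. The other 10 are called variant genes and comprised 2 for H1, 5 for H2A and 3 for H3. In GENCODE v29, 47 members were protein-coding genes, HIST2H2BC and HIST2H2BD were transcribed pseudogenes, and H3F3AP4 was a processed pseudogene of H3F3A.

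RNA was sequenced after 24 h in DMSO, the solvent, or in 0.5 uM of MS177, MS177N1 or C24, with 2 libraries in each of the 4 groups. As background, MS177 is a degrader of EZH2, the methyltransferase that marks histone H3 in Polycomb-repressed chromatin. C24 is an EZH2 inhibitor, and MS177N1 is an analog of MS177 used as a control, without degradation of EZH2. The labels do not say whether the 2 libraries of a group came from separate cultures, so the p-values below measure only the spread between these libraries.

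Replication-dependent histone genes are transcribed in S phase, when new DNA needs new nucleosomes. Their mRNAs as a rule end in a short 3′ stem-loop instead of a poly(A) tail, and the protein SLBP binds that loop. Variant histones are made through the cell cycle from ordinary polyadenylated mRNAs, and some cluster genes are known to make a polyadenylated mRNA as well. The libraries were made with the NEBNext Ultra II kit, and whether poly(A) selection came before it is not stated in the sources used here. A low level of a cluster gene and a poor capture of mRNA without a tail therefore cannot be told apart.

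The ends of the mRNAs are shown first, because a stem-loop is the usual end of replication-dependent histone mRNAs. The annotation does not sort the members by kind of mRNA. A stem-loop was found after the coding sequence in a GENCODE v29 transcript of 25 of 40 cluster genes and of 1 of 10 variant genes. In 20 of the 40 cluster genes an annotated transcript ran more than 100 bases past the loop. Where none was found, these letters are only missing from the annotated transcripts. The loops of the cluster genes that the results turn on are given 5′ to 3′ in DNA letters, with the whole 16-base loop in capitals.
HIST1H2AC, HIST2H2AA4, HIST1H3H and HIST1H2BN: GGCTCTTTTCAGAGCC
HIST1H2BD: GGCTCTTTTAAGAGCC
HIST2H4A and HIST2H4B: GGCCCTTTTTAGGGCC
H2AFX, the variant gene with a loop: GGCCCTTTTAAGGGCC

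The promoters of 6 members are shown because the results below set them against each other: HIST1H2AC, HIST1H2BD and HIST1H1C among the cluster genes, H3F3B and H3F3A as a pair of genes for 1 protein, and H1FX. Each line gives the 160 bases before the RefSeq start of the gene (build GRCh38.p14), 5′ to 3′ on the strand of the gene. Capitals mark the CCAAT box, the TATAAA box and the octamer ATTTGCAT on either strand. On the opposite strand the CCAAT box is spelled ATTGG and the octamer is spelled ATGCAAAT.
HIST1H2AC, chr6:26124012-26124171, plus strand: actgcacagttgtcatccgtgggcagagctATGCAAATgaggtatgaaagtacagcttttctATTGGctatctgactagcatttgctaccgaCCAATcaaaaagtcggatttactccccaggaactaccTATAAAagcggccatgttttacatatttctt
HIST1H2BD, chr6:26157961-26158120, plus strand: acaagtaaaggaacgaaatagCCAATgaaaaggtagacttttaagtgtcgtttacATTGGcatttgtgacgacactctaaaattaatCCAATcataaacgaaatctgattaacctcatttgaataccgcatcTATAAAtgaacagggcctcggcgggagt
HIST1H1C, chr6:26056471-26056630, minus strand: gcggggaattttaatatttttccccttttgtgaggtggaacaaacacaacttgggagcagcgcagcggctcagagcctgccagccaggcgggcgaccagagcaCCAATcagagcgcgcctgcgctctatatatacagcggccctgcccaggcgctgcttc
H3F3B, chr17:75779780-75779939, minus strand: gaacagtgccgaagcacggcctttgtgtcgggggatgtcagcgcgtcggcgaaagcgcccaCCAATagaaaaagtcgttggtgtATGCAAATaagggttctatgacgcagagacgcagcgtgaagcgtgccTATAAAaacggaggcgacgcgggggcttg
H3F3A, chr1:226061671-226061830, plus strand: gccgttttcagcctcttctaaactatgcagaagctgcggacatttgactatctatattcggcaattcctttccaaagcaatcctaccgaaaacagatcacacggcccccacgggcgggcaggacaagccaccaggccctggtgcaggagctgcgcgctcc
H1FX, chr3:129316287-129316446, minus strand: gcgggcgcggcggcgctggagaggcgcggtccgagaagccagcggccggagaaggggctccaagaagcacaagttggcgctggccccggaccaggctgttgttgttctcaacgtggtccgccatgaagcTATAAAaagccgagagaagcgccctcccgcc

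Between 20000665 and 26619099 reads per library fell in listed genes, and replicates of a group correlated at 0.985 to 0.988 across tested genes. All 8 marker genes of plasma cells were listed, and their summed level was 177230 to 177762 normalized reads in DMSO, 110259 to 111035 with MS177 and 177630 to 181620 with MS177N1 or C24. With MS177 against DMSO, 6 of them fell, 1 rose and 1 was not called. In that comparison 57.9% of all 14164 tested genes were called, 4097 higher and 4110 lower. IGJ went from a mean of 80328 in DMSO to 34409 and SDC1 from 28802 to 12423. XBP1 rose from 31704 to 34195, and CD38, at 1281 and 1242, was not called. Of 6 marker genes of monocytes and granulocytes, 4 were listed, with a summed level of 293 to 366 in DMSO, 1548 to 1671 with MS177 and 295 to 340 in the other groups. All 3 of those tested rose with MS177: CD68 from 256 and 370 reads in DMSO to 1479 and 1573, AIF1 from 3 and 0 to 48 and 45, and CD163 from 0 and 1 to 23 and 26. CD14 was under the filter at 2 to 11 reads per library, and LYZ and MPO were not listed. The T-cell marker CD3E, 1 of 3 listed, fell from 69 and 64 reads to 31 and 32, and the erythroid marker HBB, 1 of 3 listed, was not called. The part of these shifts in the histone values was not tested. The labels name 1 cell line, MM1.S, for all 8 libraries. In bulk RNA, a shift in all of its cells and a shift in some of them cannot be told apart. Levels below are normalized reads, which are the reads of a gene in a library divided by the authors' size factor for that library (0.904 to 1.17). Changes are differences on the scale log2(normalized reads + 1), tested with limma and adjusted over all genes tested. Called means an adjusted p below 0.05.

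The 2 classes differed greatly in level. The 10 variant genes together took 0.373% to 0.400% of the reads in DMSO, and the 40 cluster genes together took 0.00277% and 0.00312%. Per kilobase of transcript, the highest mean levels among the variants in DMSO were 15538 normalized reads for H2AFZ, 14783 for H3F3A and 13398 for H1FX. H2AFV followed at 7755, H3F3B at 4251, H2AFY at 3794 and H2AFX at 2924, and H2AFJ and the pseudogene H3F3AP4 were at 303 and 253. The highest cluster genes on that scale were HIST2H2AA4 at 288, HIST1H1C at 144 and HIST3H2A at 62.3. Of the 50 members, 35 passed the filter on low reads (26 cluster and 9 variant genes), and 14 cluster genes and H1F0 did not.

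With MS177, more histone mRNA was read than in DMSO in both classes, and it came from few genes. The summed level of the 40 cluster genes was 630 and 707 normalized reads in the DMSO libraries, 1764 and 1601 with MS177, 645 and 629 with MS177N1, and 638 and 660 with C24. Both MS177 libraries lay above the other 6 libraries, and the means of 668 ± 54.5 in DMSO and 1683 ± 115 with MS177 (SD, n = 2) stood 2.52-fold apart. The summed level of the 10 variant genes was 90929 and 84409 in DMSO, 121981 and 109059 with MS177, 84165 and 84807 with MS177N1, and 87672 and 87247 with C24. It was 1.32-fold higher with MS177 than in DMSO, again with no overlap. These sums are a description, with no test.

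**Figure D1:**
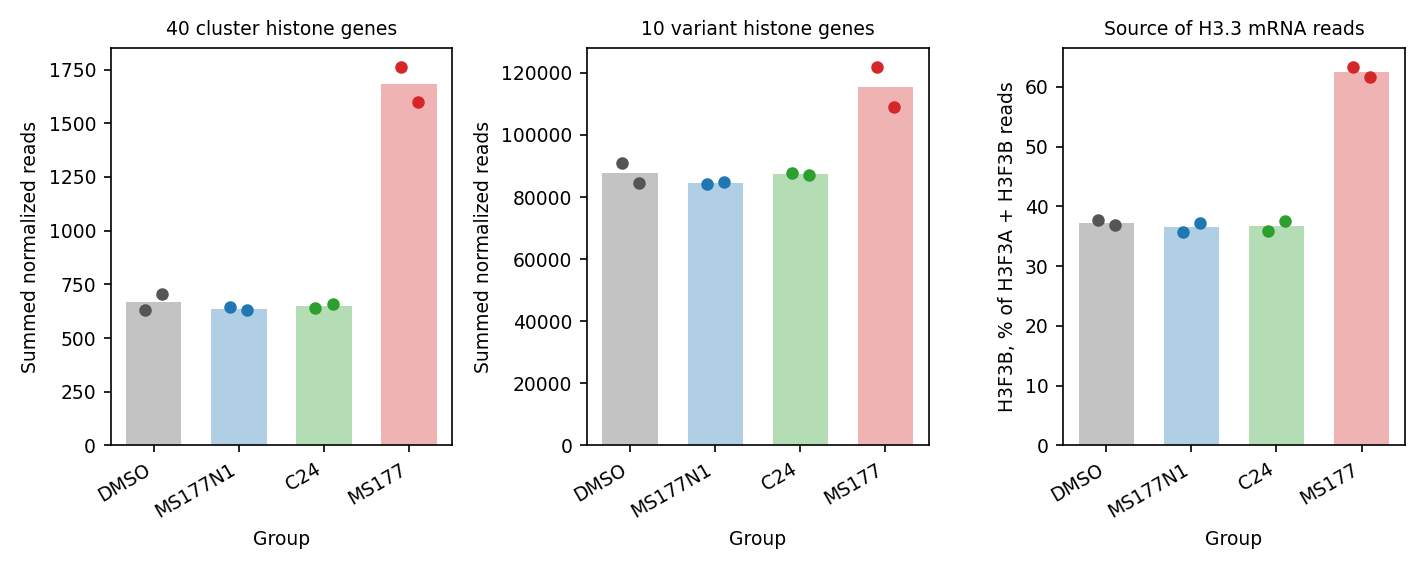
Summed normalized reads of the 40 cluster genes (left) and the 10 variant genes (middle), and the share of H3F3B in the reads of H3F3A plus H3F3B in percent (right), by group. Points are libraries and bars are means of 2, and in each panel both MS177 libraries lie above the other 6.

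In MS177 against DMSO, 8 of 26 tested cluster genes rose, 0 fell and 18 were not called, whereas 3 of 9 tested variant genes rose, 5 fell and 1 was not called. At an unadjusted p under 0.05 by limma there were 8 cluster genes, the 8 that rose, beside 8742 of all 14164 tested genes. Of the 35 tested members 16 were called, or 45.7%, beside 57.9% of all 14164 tested genes (4097 higher and 4110 lower). The share was 30.8% for the cluster genes and 88.9% for the variant genes. The median difference was 0.66 over the tested cluster genes, with 22 of 26 above 0, and -0.25 over the tested variants, beside 0.00 over all tested genes. The filter bears on these counts: 3 of the 8 cluster genes that rose (HIST2H4B, HIST1H3H and HIST1H2BN) and 6 of the 18 not called reached it only with the help of the MS177 libraries. For such genes a level that is high with MS177 was a condition of being tested, and 5 of the cluster genes that rose passed without it. The counts and medians over tested cluster genes are therefore a description and support nothing further. The cluster genes had few reads and wide intervals, as the plot of changes with their intervals shows, so a cluster gene that was not called was not shown to be unchanged.

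**Figure D2:**
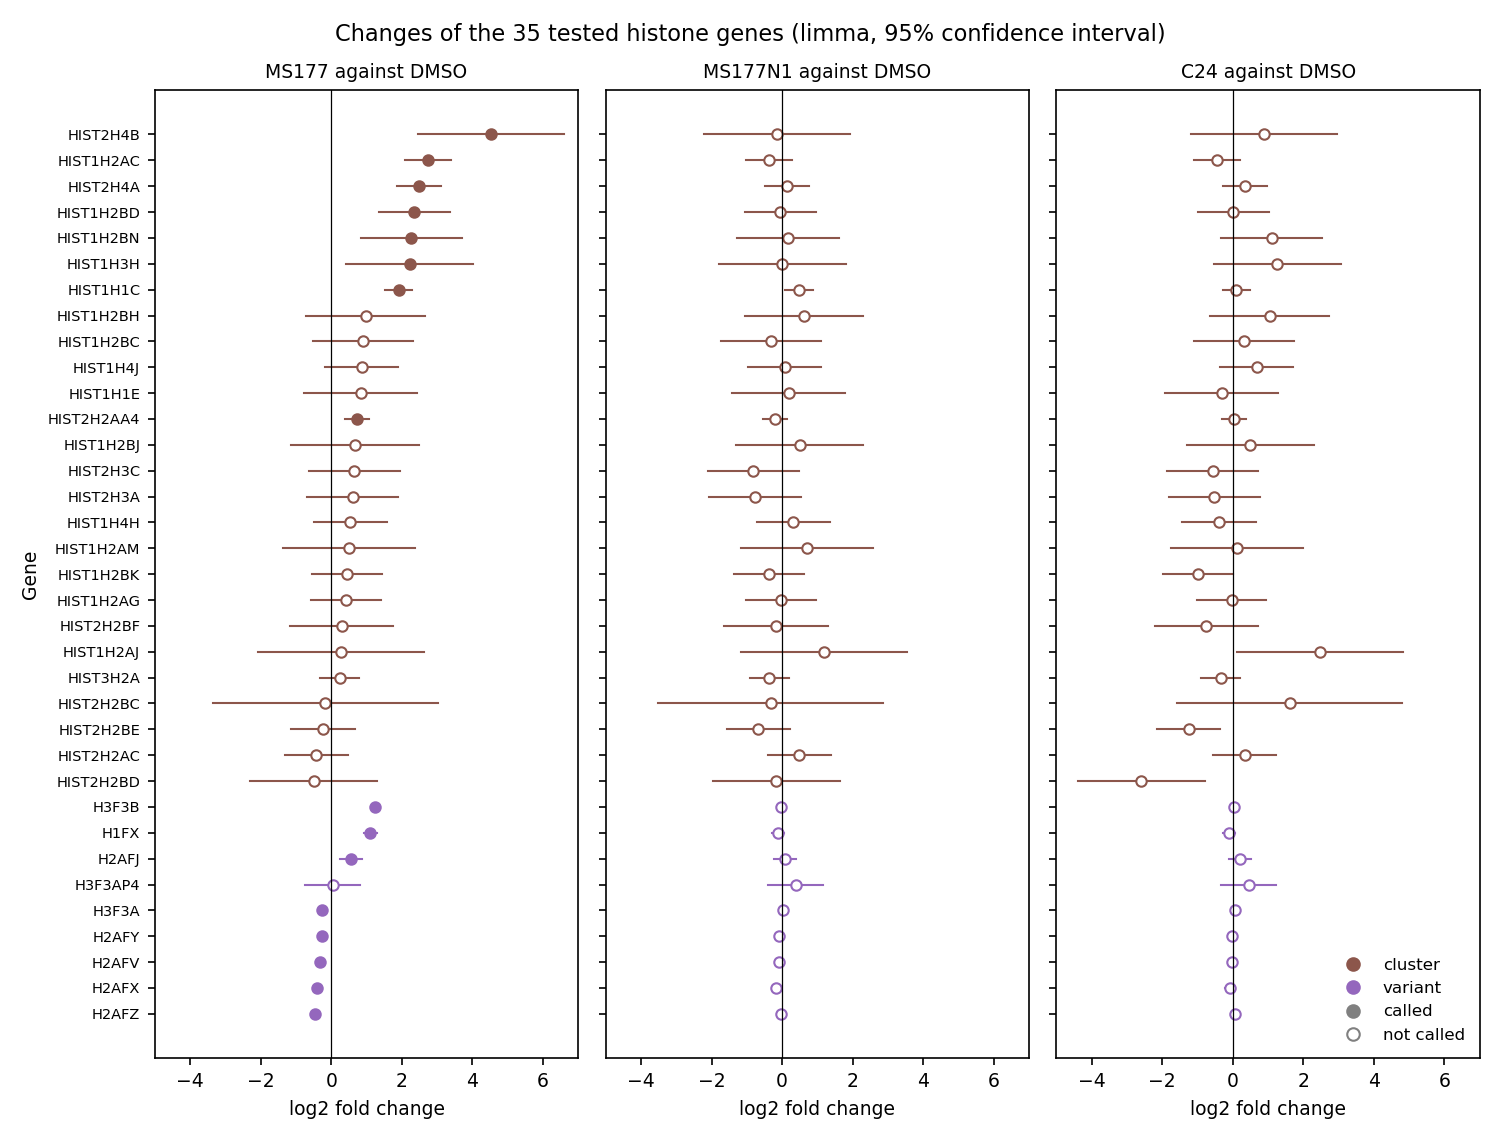
Difference on the log2(normalized reads + 1) scale of each of the 35 tested members in MS177, MS177N1 and C24 against DMSO, with 95% confidence intervals from limma. Filled points were called at an adjusted p under 0.05, and they occur in the MS177 panel alone: 8 cluster genes to the right of 0, and 3 variant genes to the right and 5 to the left.

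Among the core histones of the clusters, HIST1H2AC, a gene for H2A, had 52.8 and 43.3 normalized reads in DMSO, 327 and 327 with MS177, 52.5 and 25.5 with MS177N1, and 41.9 and 28.8 with C24. The MS177 libraries stood far above the other 6, which lay between 25.5 and 52.8. The difference from DMSO was 2.75 (SE 0.30, limma adjusted p = 1.46e-06), or 6.72-fold on that scale. HIST2H2AA4, another H2A gene and the cluster gene with the most reads, had 166 and 159 in DMSO, 299 and 242 with MS177, 129 and 154 with MS177N1, and 153 and 181 with C24. It was again highest in both MS177 libraries, and rose by 0.73 (SE 0.16, limma adjusted p = 0.00107). HIST2H2AA4 has a near-identical copy next to it, so the counting may have split reads between the 2 genes.

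The H2B gene HIST1H2BD had 16.5 and 8.65 normalized reads in DMSO, 84.7 and 50.5 with MS177, 14.7 and 9.09 with MS177N1, and 14.5 and 9.95 with C24. The groups other than MS177 overlapped each other, and the lower MS177 library was well above their highest. HIST1H2BD rose by 2.35 (SE 0.47, limma adjusted p = 0.000495), or 5.11-fold on that scale. HIST1H2BN, also an H2B gene, had only 9 and 2 reads in DMSO and 18 and 38 with MS177, against 5 and 6 with MS177N1 and 10 and 13 with C24. HIST1H2BN reached the filter only with the help of the MS177 libraries, and was called at 2.27 (SE 0.68, limma adjusted p = 0.00896). The call rested on single libraries: the adjusted p was 0.108 without DMSO replicate 2 and 0.087 without MS177 replicate 2, and the difference was 3.22 without DMSO replicate 1 and 1.32 without DMSO replicate 2.

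The H4 genes HIST2H4A and HIST2H4B have identical coding sequences, so their reads cannot be assigned to either with certainty. HIST2H4A had 22.0 and 38.5 normalized reads in DMSO, 173 and 165 with MS177, 33.6 and 30.9 with MS177N1, and 32.5 and 42.0 with C24. HIST2H4B had 0 and 6 reads in DMSO, 58 and 60 with MS177, 0 and 5 with MS177N1, and 5 and 3 with C24. Added together, which removes the doubt on the split between the pair, they stood at 33.1 ± 15.7 in DMSO and 228 ± 9.87 with MS177 (SD, n = 2), a ratio of 6.88. Singly, HIST2H4A rose by 2.49 (SE 0.29, limma adjusted p = 2.62e-06) and HIST2H4B by 4.53 (SE 0.97, limma adjusted p = 0.000866). The latter difference depended on the few DMSO reads, since it was 3.15 without DMSO replicate 1 and 5.91 without DMSO replicate 2. HIST2H4B passed the filter through its MS177 libraries alone, so a high level with MS177 was a condition of its being tested.

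HIST1H3H, a gene for canonical H3, had 6 and 1 reads in DMSO, 24 and 12 with MS177, 1 and 7 with MS177N1, and 9 and 8 with C24. It passed the filter through its MS177 libraries alone, and was the called member closest to the threshold, at 2.23 (SE 0.85, limma adjusted p = 0.0342). The adjusted p was 0.265 without DMSO replicate 2, 0.212 without MS177 replicate 1 and 0.0506 without C24 replicate 2, and the difference was 3.20 without DMSO replicate 1 and 1.25 without DMSO replicate 2. The other tested H3 genes of the clusters, HIST2H3A and HIST2H3C, have identical coding sequences and read almost alike. HIST2H3C had 6 and 16 reads in DMSO and 16 and 17 with MS177, and its difference of 0.65 was not called (95% interval -0.64 to 1.94).

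Among the linker histones, which bind the DNA between nucleosomes, HIST1H1C encodes a replication-dependent H1 that is also known as a polyadenylated mRNA. It had 81.4 and 104 normalized reads in DMSO, 393 and 311 with MS177, 133 and 125 with MS177N1, and 107 and 90.7 with C24. The MS177 libraries were highest, and the MS177N1 libraries lay just above those of DMSO. HIST1H1C rose by 1.91 with MS177 (SE 0.18, limma adjusted p = 2.17e-07), or 3.77-fold on that scale. No stem-loop of the kind printed above was found after the coding sequence of its 1 annotated transcript, of 642 bases. That says nothing of the end of the mRNA beyond the annotated bases. HIST1H1E, the other tested H1 gene of the clusters, had 4 and 9 reads in DMSO and 14 and 10 with MS177, and its difference of 0.83 was not called (limma adjusted p = 0.364).

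**Figure D3:**
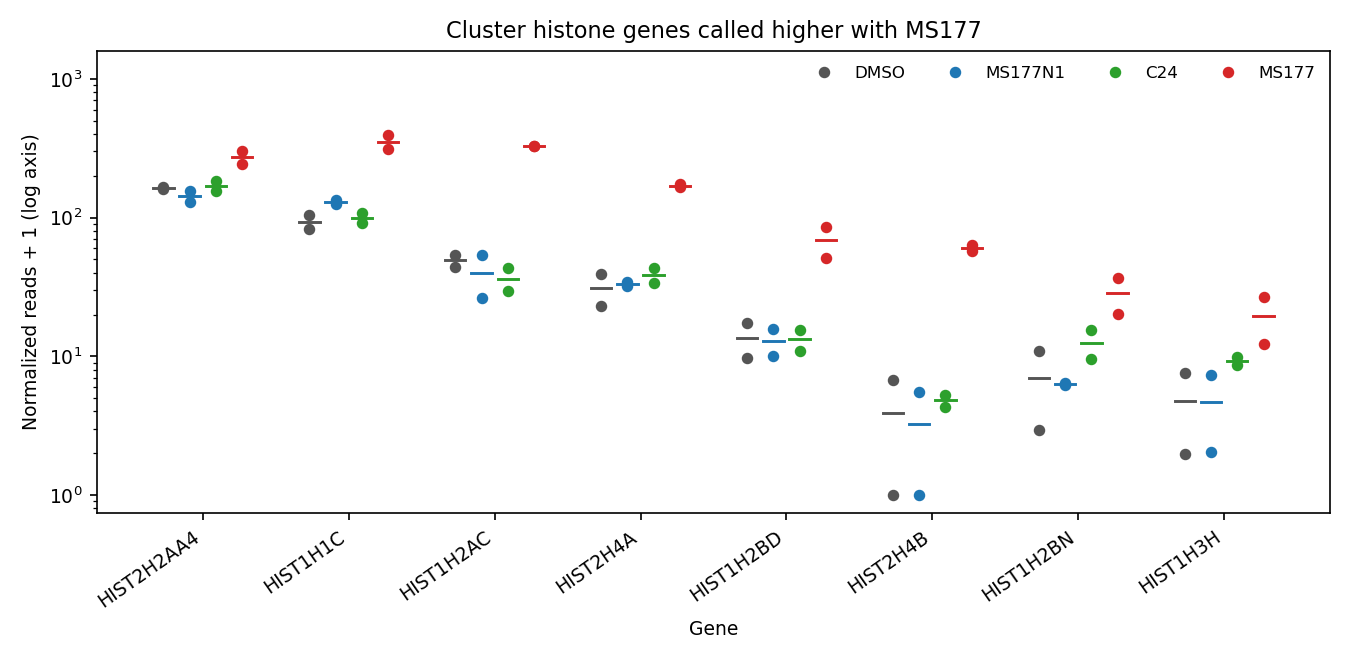
Normalized reads plus 1, on a log axis, of the 8 cluster genes that rose with MS177, by group; points are libraries and lines are means of 2. For each gene both MS177 points lie above the points of the other groups, and for HIST2H4B, HIST1H2BN and HIST1H3H the other groups stand at 0 to 14.4 normalized reads.

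Of the 18 tested cluster genes that were not called, HIST1H4J, HIST1H2BC and HIST1H2BH were nearest to the threshold. HIST1H4J, an H4 gene, had 7 and 19 reads in DMSO, 21 and 24 with MS177, 12 and 14 with MS177N1, and 29 and 14 with C24 (0.86 against DMSO, limma adjusted p = 0.148). HIST1H2BC had 4 and 19 in DMSO, 13 and 25 with MS177, 4 and 13 with MS177N1, and 13 and 11 with C24 (0.90 against DMSO, limma adjusted p = 0.263). HIST1H2BH had 1 and 13 in DMSO, 10 and 9 with MS177, 6 and 9 with MS177N1, and 15 and 7 with C24 (0.98 against DMSO, limma adjusted p = 0.307). In all 3 the DMSO libraries differed from each other by more than the MS177 libraries did, and for HIST1H2BC and HIST1H2BH the 2 groups overlapped. Without DMSO replicate 2, HIST1H4J (1.43, limma adjusted p = 0.0398) and HIST1H2BH (2.32, limma adjusted p = 0.0233) were called higher.

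HIST3H2A, the third cluster gene by level per kilobase in DMSO, had 48 and 61 reads in DMSO, 62 and 70 with MS177, 47 and 41 with MS177N1, and 47 and 43 with C24. Its difference of 0.24 was not called (limma adjusted p = 0.45, 95% interval -0.31 to 0.80), and that interval lies below the one of HIST1H2AC, which was 2.10 to 3.40. Differences below 0 occurred in 4 of the 26 tested cluster genes: HIST2H2AC (-0.43), HIST2H2BE (-0.23) and the pseudogenes HIST2H2BC (-0.17) and HIST2H2BD (-0.50). None of the 4 was called. With the 8 called genes set aside, the other 32 cluster genes summed to 310 ± 50.3 normalized reads in DMSO and 392 ± 16.0 with MS177 (SD, n = 2). That ratio of 1.27 is a description of a set trimmed after its values were seen.

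By family, 1 of 2 tested H1 genes of the clusters rose, 2 of 7 for H2A, 2 of 10 for H2B, 1 of 3 for H3 and 2 of 4 for H4. Over all 14164 tested genes 4097 rose, and 57.9% were called in either direction. The H3 gene HIST1H3H, the H4 gene HIST2H4B and the H2B gene HIST1H2BN reached the filter only with the MS177 libraries. With so few genes per family, these counts are a description. A stem-loop was annotated for 7 of the 8 genes that rose and for 12 of the 18 that were not called, and a transcript running past it for 5 of 8 and 11 of 18. The loop was searched only after the coding sequence, so a gene annotated with few bases there could not show it. Among those without it, HIST2H2AC and HIST1H2BK had annotated transcripts of 390 and 381 bases. These counts therefore describe the annotation and do not sort the genes by kind of mRNA. Of 6 cluster genes known from background to be made also as polyadenylated mRNA, HIST1H1C, HIST1H2AC and HIST1H2BD rose, and HIST1H2BC, HIST1H2BK and HIST2H2BE were not called (median 1.41). HIST1H2BK had 20 and 17 reads in DMSO, 27 and 25 with MS177, 10 and 22 with MS177N1, and 11 and 8 with C24. HIST2H2BE had 22 and 29 in DMSO, 23 and 21 with MS177, 14 and 19 with MS177N1, and 14 and 8 with C24.

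The 14 cluster genes under the filter held too few reads for a test. They were HIST2H3D, HIST1H3C, HIST1H4C, HIST1H3D, HIST1H2AD, HIST1H2BG, HIST1H2AE, HIST1H3G, HIST1H4I, HIST1H2AI, HIST1H2AL, HIST1H1B, HIST1H3J and HIST4H4. Together they had 56 and 52 reads in DMSO, 63 and 90 with MS177, 52 and 36 with MS177N1, and 61 and 48 with C24. H1F0, the linker histone of resting and differentiated cells, was the variant gene under the filter. It had 0 reads in all DMSO and MS177 libraries, 0 and 1 with MS177N1, and 13 and 3 with C24. It was therefore not tested.

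The variant genes were read far more deeply, and 8 of the 9 tested were called. H3F3A and H3F3B encode the same H3.3 protein, the H3 placed in chromatin outside replication, and they moved in opposite directions. H3F3B had 11889 and 11110 normalized reads in DMSO, 28663 and 25580 with MS177, 10977 and 11534 with MS177N1, and 11521 and 11924 with C24. Both MS177 libraries stood far above the other 6, which overlapped across groups. H3F3B rose by 1.24 (SE 0.05, limma adjusted p = 5.11e-11), or 2.36-fold. H3F3A had 19631 and 19041 in DMSO, 16570 and 15902 with MS177, 19732 and 19493 with MS177N1, and 20635 and 19784 with C24. The MS177 libraries were the lowest, and H3F3A fell by 0.25 (SE 0.04, limma adjusted p = 6.26e-05).

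The share of H3F3B in the reads of the pair was 37.7% and 36.8% in DMSO, 63.4% and 61.7% with MS177, 35.7% and 37.2% with MS177N1, and 35.8% and 37.6% with C24. The pair summed to 30835 ± 968 in DMSO and 43358 ± 2653 with MS177 (SD, n = 2), a ratio of 1.41. Per kilobase of transcript, H3F3A stood at 14783 and H3F3B at 4251 in DMSO, and with MS177 at 12413 and 10027. The 160 bases before H3F3B hold a CCAAT, an octamer and a TATAAA, and those before H3F3A hold none of the 3. In the wider window of 250 bases H3F3A also has a CCAAT. Any tie between these letters and the changes was not tested. The processed pseudogene H3F3AP4, whose reads may come from H3F3A, had 134 and 63 reads in DMSO and 89 and 106 with MS177. It was not called (0.04, limma adjusted p = 0.934), but the call depended on which DMSO library was kept: it was higher without DMSO replicate 1 (0.67, limma adjusted p = 0.0309) and lower without DMSO replicate 2 (-0.60, limma adjusted p = 0.0433).

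H1FX is a linker histone whose making is not tied to S phase. It had 21535 and 18848 normalized reads in DMSO, 46870 and 40466 with MS177, 18579 and 18791 with MS177N1, and 19158 and 18525 with C24. Both MS177 libraries stood clear of the other 6. H1FX rose by 1.11 (SE 0.08, limma adjusted p = 1.28e-06), or 2.16-fold, and was the histone gene with the highest level per kilobase in MS177 cells, at 28977. Its antisense neighbour H1FX-AS1, no member by the rule, had 9 and 6 reads in DMSO and 18 and 14 with MS177 and was not called (0.98, limma adjusted p = 0.16). Whether the counting used strand is not stated, but the reads of the antisense gene were few beside those of H1FX.

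Of the 5 H2A variants, 4 fell. H2AFZ and H2AFV encode both forms of H2A.Z, which sits beside transcription starts. H2AFZ had 15799 and 14624 normalized reads in DMSO, 11591 and 10458 with MS177, 14668 and 15040 with MS177N1, and 15300 and 16194 with C24. The MS177 libraries were lowest, and H2AFZ fell by 0.47 (SE 0.05, limma adjusted p = 2.17e-06). H2AFV had 6007 and 5656 in DMSO, 4827 and 4437 with MS177, 5579 and 5463 with MS177N1, and 5839 and 5660 with C24, again lowest with MS177. It fell by 0.33 (SE 0.05, limma adjusted p = 5.19e-05). H2AFY, the gene of macroH2A1, a large H2A with an extra domain, had 10828 and 10336 in DMSO, 9279 and 8460 with MS177, 10060 and 10041 with MS177N1, and 10333 and 10452 with C24. It fell by 0.26 (SE 0.05, limma adjusted p = 0.00029), also with no overlap.

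H2AFX encodes H2A.X, which is phosphorylated at DNA breaks, and its mRNA is known in a stem-loop form and in a polyadenylated form. It had 4877 and 4561 normalized reads in DMSO, 3768 and 3399 with MS177, 4249 and 4106 with MS177N1, and 4537 and 4334 with C24. H2AFX fell by 0.40 with MS177 (SE 0.06, limma adjusted p = 2.31e-05). H2AFJ, the gene of H2A.J, was the H2A variant that rose. It had 216 and 174 in DMSO, 318 and 258 with MS177, 210 and 202 with MS177N1, and 223 and 222 with C24, so both MS177 libraries were highest. The difference was 0.56 (SE 0.15, limma adjusted p = 0.00354), and without DMSO replicate 2 it was 0.41 and just missed the threshold (limma adjusted p = 0.0505).

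**Figure D4:**
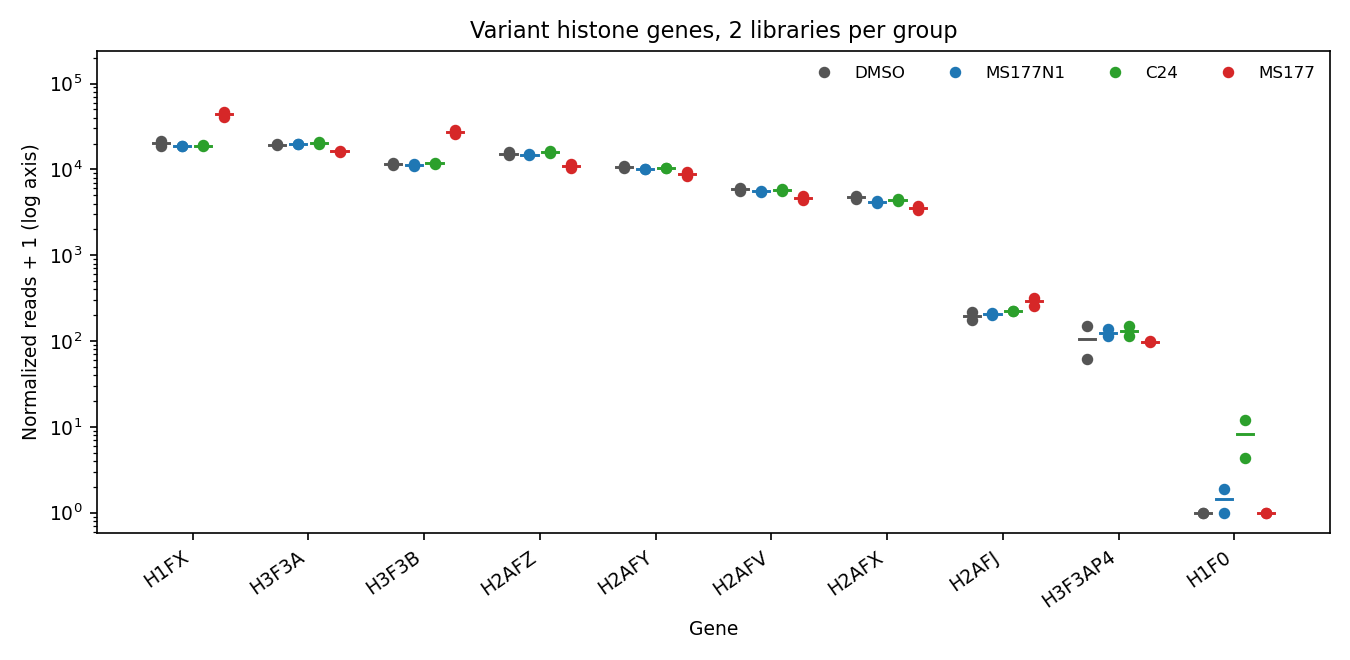
Normalized reads plus 1, on a log axis, of the 10 variant genes by group; points are libraries and lines are means of 2. The MS177 points lie above the other groups for H1FX, H3F3B and H2AFJ and below them for H3F3A, H2AFZ, H2AFY, H2AFV and H2AFX.

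The analogs were set against MS177 at the same dose and time. MS177 against MS177N1 gave 16 called members, 11 higher and 5 lower, beside 57.4% of all tested genes. Higher were 8 cluster genes (HIST1H2AC, HIST2H2AA4, HIST1H2BD, HIST1H2BN, HIST2H4A, HIST2H4B, HIST1H3H and HIST1H1C) with H3F3B, H1FX and H2AFJ, and lower were H3F3A, H2AFZ, H2AFV, H2AFX and H2AFY. The difference was 3.12 for HIST1H2AC (SE 0.30), 1.43 for HIST1H1C (SE 0.18), 1.27 for H3F3B (SE 0.05), 1.22 for H1FX (SE 0.08) and -0.43 for H2AFZ (SE 0.05). MS177 against C24 gave 17 called members, 12 higher and 5 lower, beside 58.1% of all tested genes. For the same genes the difference from C24 was 3.20 for HIST1H2AC, 1.82 for HIST1H1C, 1.21 for H3F3B, 1.21 for H1FX and -0.52 for H2AFZ, with the same SEs. The 3 comparisons share the MS177 libraries, so they are not independent of each other. HIST2H4B, HIST1H3H and HIST1H2BN reached the filter only with the help of the MS177 libraries. The counts of called members are therefore a description here too.

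Against C24, HIST1H2BK (1.42, limma adjusted p = 0.0161), HIST2H2BD (2.10, limma adjusted p = 0.0446) and HIST2H2BE (1.02, limma adjusted p = 0.049) were also higher with MS177. Their C24 libraries were the lowest of the 8 in normalized reads, at 11 and 8 reads for HIST1H2BK, 4 and 0 for HIST2H2BD and 14 and 8 for HIST2H2BE. HIST2H2BD had 10 and 13 reads in DMSO, 15 and 4 with MS177, and 7 and 16 with MS177N1, so its MS177 libraries differed widely from each other. HIST1H3H (0.97, limma adjusted p = 0.347) and HIST1H2BN (1.17, limma adjusted p = 0.152) were not called against C24, whose libraries had 9 and 8 and 10 and 13 reads of them.

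Neither analog changed a histone gene past the threshold. In MS177N1 against DMSO, 0 of 35 members were called by limma, beside 0.0353% of all tested genes. At an unadjusted p under 0.05 there were 2 members, beside 718 of all 14164 tested genes. They were HIST1H1C at 0.48 (limma unadjusted p = 0.0174) and H2AFX at -0.18 (limma unadjusted p = 0.00834). In C24 against DMSO, 0 of 35 were called by limma, beside 0.0918% of all tested genes. There 3 members had an unadjusted p under 0.05, beside 762 of all 14164 tested genes. These were, at few reads, HIST2H2BE at -1.25, HIST2H2BD at -2.60 and HIST1H2AJ at 2.47. C24 against MS177N1 gave 0 calls by limma, beside 0.0141% of all tested genes. HIST2H2BD at -2.44 was the 1 member with an unadjusted p under 0.05, beside 634 of all 14164 tested genes. A p that misses the threshold does not show that the analogs act alike, and the intervals give what the data allow. For C24 against MS177N1 the 95% interval was -0.06 to 0.17 for H3F3B, -0.04 to 0.13 for H3F3A, -0.16 to 0.18 for H1FX and -0.03 to 0.20 for H2AFZ. For HIST1H2AC it was -0.72 to 0.57, and for HIST1H1C it was -0.77 to 0.00.

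Genes that make, process and carry histones were read from lists of 22 and 35 names, and their counts stand beside 4097 higher and 4110 lower of all 14164 tested genes, of which 57.9% were called. Of 22 genes for the synthesis, processing and decay of histone mRNA, 3 rose, 11 fell and 8 were not called (median -0.27). SLBP, the stem-loop binding protein, had 4371 and 4636 normalized reads in DMSO, 2588 and 2629 with MS177, 4293 and 4269 with MS177N1, and 4343 and 4407 with C24. The MS177 libraries were far below the other 6, and SLBP fell by 0.79 (SE 0.05, limma adjusted p = 2.25e-09). CCNE1, the cyclin whose kinase activates NPAT, fell by 1.25, and LSM11, a subunit of the U7 particle that cuts histone mRNA, fell by 0.77. Those that rose were UPF1, a factor of mRNA decay (0.44), ZCCHC6, a uridylyltransferase (0.26), and NPAT, the coactivator of histone transcription (0.26). CASP8AP2, a part of the same nuclear bodies as NPAT, was not called (-0.21, limma adjusted p = 0.0536).

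Of 35 histone chaperones and deposition factors, 6 rose, 20 fell and 9 were not called (median -0.26), beside 57.9% of all tested genes called and a median of 0.00. NASP, which holds the soluble pool of H3 and H4, fell by 1.48 from a mean of 3853 to 1381 normalized reads (SE 0.05, limma adjusted p = 3.15e-12). OIP5 fell by 0.67 and NAP1L4 by 0.61. The replication-coupled chaperones ASF1B and CHAF1A fell by 0.44 and 0.45, HIRA, which deposits H3.3 at active genes, fell by 0.44, and SUPT16H fell by 0.46. Its partner SSRP1 was not called (0.00, limma adjusted p = 0.969). ATRX, which deposits H3.3 with DAXX, rose by 0.76, UBN2 by 0.56 and INO80 by 0.34, and DAXX was not called (0.13, limma adjusted p = 0.053). The centromeric H3 gene CENPA, outside the rule, had a mean of 469 in DMSO and 443 with MS177 and was not called (limma adjusted p = 0.53).

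S-phase genes were read beside these because cluster genes are transcribed in that phase. Of 20, 0 rose and 19 fell (median -0.59, beside 57.9% of all tested genes called in either direction), with FEN1 at -0.97 and RRM2 at -0.92, and TK1 was not called (limma adjusted p = 0.941). Thus the summed cluster reads were higher in the same libraries in which S-phase transcripts and SLBP were lower. The part of these genes in the histone values was not tested. Of the 77 genes of these 3 lists, 0 were called by limma in MS177N1 or in C24 against DMSO, where 4 and 3 had an unadjusted p under 0.05. Over all 14164 tested genes 0.0353% and 0.0918% were called there, and 718 and 762 had an unadjusted p under 0.05.

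The promoter windows were searched for letters known from histone promoters. RefSeq windows were matched for 44 of the 50 members, and the 250 bases before each start were searched on both strands. CCAAT was found for 31 of 36 cluster genes (86.1%), 6 of the 8 that rose and 6 of 8 variants, beside 32.0% of all 35116 windows. TATAAA was found for 21 of 36 cluster genes (58.3%), 4 of the 8 that rose and 4 of 8 variants, beside 10.7% of all windows. The octamer ATTTGCAT, known as the site of the factor POU2F1 in H2B promoters, was found for 16 of 36 (44.4%), for 7 of 9 in H2B genes and 8 of 11 in H2A genes, beside 1.63% of all windows. Of the 8 that rose, 1 held it, HIST1H2AC, and among 8 variants 1 held it, H3F3B, both printed above. TGACGTCA was found for 6 of 36 cluster genes and 0 of 8 variants, beside 1.65% of all windows. Windows of head-to-head pairs share bases, so a motif there is counted for both genes. HIST1H3D and HIST1H2AD have the same RefSeq window, which is counted for each. A match is a description, and no match says only that these letters are not in the window.

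Several H2A and H2B genes stand head to head and share the bases between their starts, which makes pairs with 1 promoter region and separate readings. The starts of HIST1H2AC and HIST1H2BC lie 246 bases apart, so the printed window of HIST1H2AC also lies before HIST1H2BC on the other strand. HIST1H2AC rose by 2.75, and HIST1H2BC was not called at 0.90 with a 95% interval of -0.51 to 2.32, which overlaps that of HIST1H2AC. In the pairs HIST1H2AG with HIST1H2BJ (248 bases; 0.42 and 0.68) and HIST2H2AC with HIST2H2BE (236 bases; -0.43 and -0.23) no gene was called against DMSO. HIST1H2AE and HIST1H2BG, 233 bases apart, were both under the filter.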

How the data were processed

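The authors deposited a table of log2 values for 16295 genes in 8 libraries, labelled as normalized per the file headers. Per the submitters' processing notes, the build is hg19 and the tools include STAR 2.4.2, Salmon 0.1.19 and DESeq2 1.38.2, whose roles are not given. The values have the form of a variance-stabilizing transformation with a minimum of 5.967655733, which stands for 0 reads. Inverting it gave whole reads within 0.01 for 130360 of 130360 values. Because the table holds log2 values, a count test was not the main test. As an alternative, limma voom was run on the recovered reads, with a weight for each value. A gene was tested when 2 or more libraries held at least 10 reads, scaled to the median library size, and all libraries together at least 15 (14164 genes; 2131 were left out). The log2 of normalized reads plus 1 was modelled in R 4.3.3 with limma 3.58.1 and statmod 1.5.0, using the trend and robust options. All 4 groups entered 1 fit, with Benjamini-Hochberg adjustment over all genes within each of 6 comparisons. Sums over members carry no test. The fit was also run on simulated data, with changes planted only in genes with many reads. That run does not bear on calls at few reads.

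The members and gene lists were chosen with earlier results of these data known. Named with values in every library are members called in any comparison, those with the most reads and the 3 nearest to the threshold; of other lists, 11 preset genes and the largest changes. Transcript lengths and stem-loops came from GENCODE v29. Promoters came from RefSeq (GRCh38.p14) and were matched by Ensembl identifier or symbol. Counting error limits genes with few reads. Alternatives covered scaling, filter, pseudocount, scale, weights, groups in the fit, replicate block, length and GC content, and each library left out.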

Additional observations from a re-analysis of the deposited data

How the results depend on the processing

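In all 18 alternatives the counts of called members stayed within 1.5 times of those reported. Cluster genes higher with MS177 numbered 7 to 8 and lower 0, variants higher 2 to 4 and lower 5 to 6, and members called against MS177N1 13 to 19 and against C24 13 to 18. MS177N1 and C24 gave 0 calls against DMSO and against each other. The log2 ratio of summed reads was 1.25 to 1.42 for cluster genes and 0.31 to 0.48 for variants. Of the 16 called members, 13 kept their call throughout, and HIST1H3H, HIST1H2BN and H2AFJ kept it in 15, 16 and 17. With the replicate block, 8 cluster genes and 3 variants were higher and 5 variants lower. Replicate differences correlated at -0.06 to 0.06 between groups, so no shared replicate effect was seen. The labels do not say whether libraries with the same replicate number were handled together. Total-read scaling moved the split over all genes from 4097 higher and 4110 lower to 4761 and 3443. Removing the trend over length and GC content (12572 genes) moved it to 3123 and 5155, with a median of -0.12. Folds of genes with few reads depended on the scale: HIST2H4B was 4.53 with a pseudocount of 1, 2.68 with 8 and 1.13 on the deposited values, and HIST1H2AC 1.60 on the deposited values.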
